A study of Mus musculus with 27 samples.

Results

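The level of 6 actin genes and 4 genes of the smooth muscle contractile apparatus was followed in C2C12 cells expressing full-length NFIA or its Δpro#3 mutant. The genes were Acta1, Actc1, Acta2, Actg2, Actb, Actg1, Tagln, Cnn1, Myl9 and Myh11. They were picked by symbol, 10 of the 24825 gene rows of each sample, and all 10 had a row. C2C12 is an established mouse line of skeletal myoblasts, which fuse into muscle fibers when they differentiate. NFIA is a transcription factor of brown adipocytes, and the Δpro#3 mutant lacks a proline-rich stretch at its C-terminus. Both were brought in with a retroviral vector, and ctrl cells served as the control. Polyadenylated RNA was sequenced on day 0 and day 7, and also on day 7 when the cells had spent 4 h with 10 µM forskolin, which raises cAMP. All cells at day 7, control cells included, had first received rosiglitazone, T3, insulin, dexamethasone, indomethacin and isobutylmethylxanthine, and later rosiglitazone, T3 and insulin only. Each of the 9 groups had 3 replicates, 27 samples in all. The labels do not say whether replicates came from separate infections or cultures, so the p-values measure the spread between these samples.

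Values are FPKM, fragments per kilobase of gene scaled to the size of the library, so that the levels of different genes can be set side by side. Fold changes are differences of log2(FPKM + 1), a scale that understates the change of a gene whose level is near or below 1 FPKM in either group. A gene "passed the test" at an adjusted p under 0.05 and was "called" when the change was also more than 3-fold. Genes whose mean over the samples of a fit was below 0.5 FPKM were not tested. Cnn1 and Myh11 passed this filter in the fits that hold day 7 samples only through the groups where they were high, so their adjusted p there are given from a fit with no filter unless another setting is named, and their place in counts of members is no support for a difference. The libraries held 9567769 to 27230965 fragments. Nfia itself was at 225 to 250.2 FPKM with full-length NFIA and 397 to 423 FPKM with the mutant at day 0, at 457 to 528 and 374 to 480.5 FPKM at day 7, and at 497 to 594 and 262 to 344 FPKM after forskolin. The constructs did not overlap at day 0, where the mutant was higher by a log2 difference of 0.75 that did not pass the test (SE 0.536, adjusted p = 0.244), nor after forskolin, where it was lower by -0.88 (adjusted p = 1.85e-05), and overlapped at day 7 (-0.23, adjusted p = 0.0751). The SE at day 0 is pooled over the 3 groups, so it takes in control samples that ranged from 0.175 to 7.35 FPKM. Within the constructs at day 0, Nfia was at 242 ± 14.2 and 406 ± 14.6 FPKM (SD, n = 3). The part of the Nfia levels in differences between the constructs was not tested. Control samples were at 0.0885 to 7.35 FPKM of Nfia, where the highest value was that of day 0 replicate 2 and every other value was below 1 FPKM. Leaving out that replicate left 3 members called in each comparison with control cells at day 0, as with it. In replicate 1 of the Δpro#3 mutant at day 7, 6 adipocyte markers summed to 1992 FPKM, against 602 and 713 FPKM in the other 2 replicates, and counts that rest on this library are given with and without it. Replicate 1 stood apart from the other 2 in this group (chi-square per gene of 14.04 to 14.4 between fragment counts, against 5.95 for the other pair) and after forskolin with full-length NFIA (13.5 to 15.0 against 3.40) and with the mutant (11.9 to 13.98 against 6.04, adipocyte markers 886 against 535 and 569 FPKM). In the other 6 groups, every pair was at 1.55 to 6.64. Calls that change without these libraries are given beside the results. All 5 skeletal muscle markers were lower with full-length NFIA at day 0, from -1.25 for Myod1, which was at 16.8 FPKM or more in every sample, to -4.73 for Ckm, at 0.0276 to 0.0624 FPKM there, and -5.78 for Myog. Myocd, the cofactor that defines smooth muscle, never exceeded 0.125 FPKM, so the smooth muscle genes are described here as a set of genes and not as a cell type.

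Mammals have 6 actin genes. Actb and Actg1 encode the β- and γ-actin of the cytoskeleton in every cell. Acta1 and Actc1 encode the actins of the skeletal and cardiac sarcomere, and both are expressed in skeletal muscle cells as they differentiate. Acta2 and Actg2 encode the actins of vascular and enteric smooth muscle, and Acta2 is also expressed by myoblasts and by activated fibroblasts. Tagln (transgelin or SM22) and Cnn1 (calponin) bind actin filaments, Myl9 is the regulatory light chain of smooth muscle and non-muscle myosin, and Myh11 is the smooth muscle myosin heavy chain. Many of these genes are classical targets of SRF (serum response factor), which binds the CArG box and works with cofactors of the MRTF family that are held in the cytoplasm by free actin.

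The CArG box, CC and GG around 6 bases that are A or T, was searched on both strands in the 250 bases before the RefSeq start site (build GRCm38.p6). RefSeq entries were matched for 6 members (Acta1, Actc1, Acta2, Actg1, Cnn1 and Myl9), and 4 of these windows held a box, against 482 of all 32851 windows (1.467%). The 4 boxes shown are the exact matches in these 6 windows. The other 4 members were not searched, and boxes that differ by a base were not counted. The members were chosen with earlier results of these data in view, so these counts are no test of the set. Each sequence has the box in capitals and 25 bases on either side, in the direction of the gene. The positions are chr8:123894814-123894873 (minus strand) for Acta1, chr2:114052888-114052947 (minus strand) for Actc1, chr11:120348551-120348610 (minus strand) for Actg1 and chr2:156775278-156775337 (plus strand) for Myl9.
Acta1: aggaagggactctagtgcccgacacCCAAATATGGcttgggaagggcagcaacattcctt
Actc1: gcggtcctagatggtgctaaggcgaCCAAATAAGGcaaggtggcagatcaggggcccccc
Actg1: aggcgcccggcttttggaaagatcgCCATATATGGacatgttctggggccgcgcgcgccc
Myl9: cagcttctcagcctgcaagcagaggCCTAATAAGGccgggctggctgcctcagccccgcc
The box began 73 bases before the start of Acta1, 47 before Actc1, 90 before Actg1 and 161 before Myl9. The windows of Acta2 and Cnn1 held no exact box. The motif CANNTG, the letters that MyoD family factors read, was in 66.22% of all windows and in those of Acta1, Acta2, Actg1 and Cnn1. TATAAA, in 12.37% of all windows, was in that of Acta1. The palindromic site of the NFI family, TTGGC and GCCAA with 5 bases between them, was in none of the 6 windows and in 0.0365% of all windows.

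Actins are near copies of each other and have left processed copies in the genome, and the authors kept only reads with a single position. Of the 50-base stretches of the Actg1 transcript, 96.7% had an exact copy elsewhere in mm9, and of the 100-base stretches 92.9%. The longest copy lay at chr4:103235930-103237834 and matched 89.3% of the 50-base stretches. For Actb, the shares were 15.4% and 1.10%. They were at most 2.22% of the 50-base stretches and 0 of the 100-base stretches for the other 8 members. The FPKM of Actg1 therefore counts only the fragments that could be placed, and its level relative to other genes is uncertain.

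**Figure D1:**
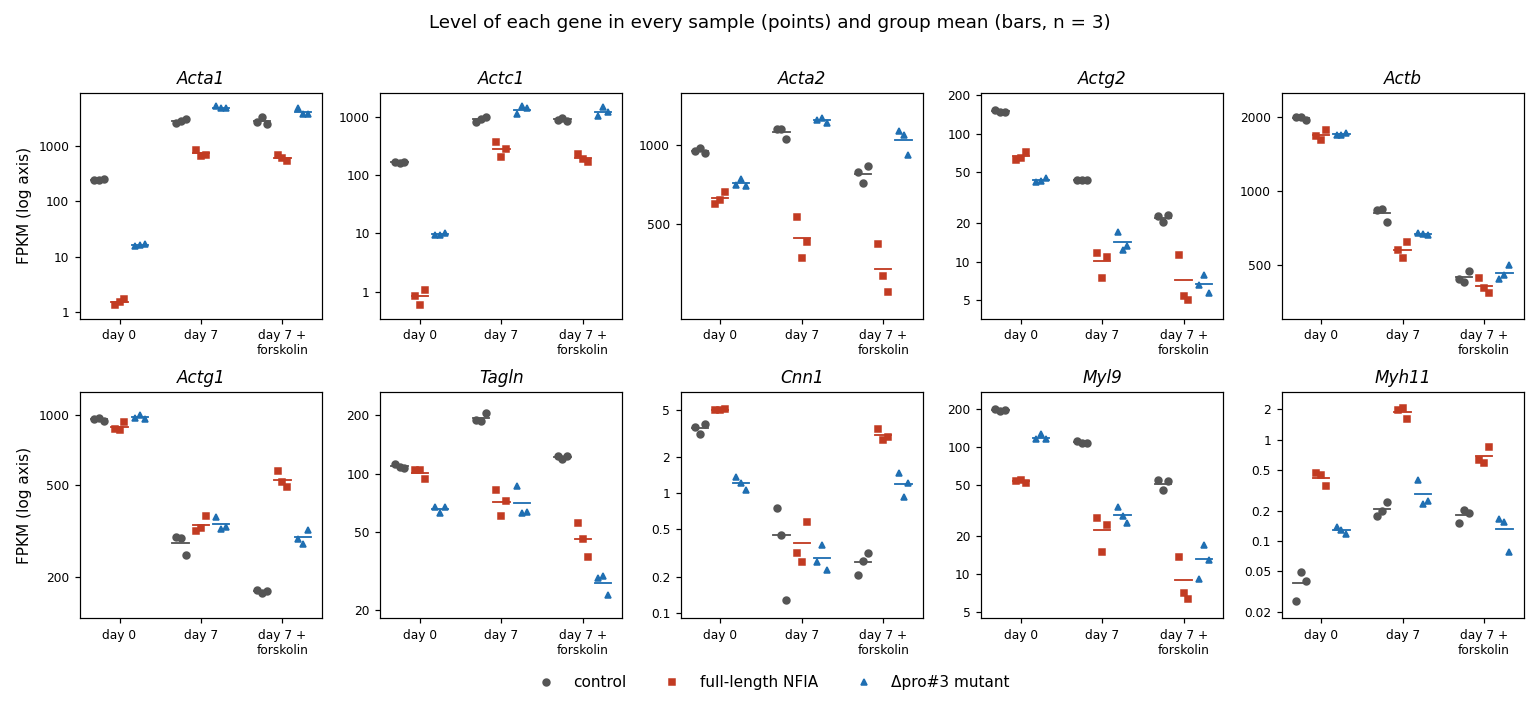
FPKM (log axis) of the 10 genes in every sample, by time and treatment, for the 3 kinds of cells; points are samples and bars are means of 3. At day 0, the 3 NFIA samples of Acta1 lie between 1.37 and 1.74 FPKM and the 3 control samples between 238 and 253 FPKM.

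At day 0, before differentiation was induced, both sarcomeric actins were lower with either construct, and more so with full-length NFIA than with the mutant. Acta1 (chr8:126415669-126418651, minus strand, mm9) was at 243, 238 and 253 FPKM in control cells. In full-length NFIA-expressing cells it was at 1.37, 1.51 and 1.74 FPKM, and in Δpro#3 mutant-expressing cells at 15.3, 16.2 and 16.7 FPKM. The 3 groups did not overlap. The log2 change against control was -6.60 (SE 0.0534, adjusted p = 5.05e-14) with full-length NFIA and -3.85 (SE 0.0534, adjusted p = 5.43e-12) with the mutant, and the mutant was higher than full-length NFIA by 2.75 (adjusted p = 4.30e-11). Actc1 (chr2:113873018-113879284, minus strand) was at 170.0, 161 and 171 FPKM in control cells, at 0.829, 0.598 and 1.09 FPKM with full-length NFIA and at 9.54, 9.37 and 10.2 FPKM with the mutant. Its log2 changes were -6.52 with full-length NFIA and -3.98 with the mutant, with 2.55 between the constructs (adjusted p = 9.24e-10). The levels with full-length NFIA lie near the added 1, so these changes are understated. With a pseudocount of 0.1 in place of 1, the changes with full-length NFIA were -7.23 for Acta1 and -7.51 for Actc1 and the differences between the constructs 3.31 and 3.42, and by limma-voom on fragments they were -7.34 and -7.73, and 3.42 and 3.63. In full-length NFIA-expressing cells, the 3 samples together held 146 fragments of Acta1 and 71 of Actc1. In these bulk samples, fewer cells that express a gene and less RNA per cell cannot be told apart.

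The smooth muscle actins fell much less at day 0. Acta2 (chr19:34315580-34329826, minus strand) was at 949, 976 and 930.3 FPKM in control cells, at 599, 620.2 and 661 FPKM with full-length NFIA and at 704, 744 and 699 FPKM with the mutant. Both constructs lay below control cells, by -0.60 (SE 0.0443) and -0.41 (SE 0.0443) on the log2 scale. Actg2 (chr6:83462899-83486259, minus strand) was at 153, 149.5 and 149 FPKM in control cells, at 62.9, 65.1 and 71.7 FPKM with full-length NFIA and at 42.4, 43.2 and 45.1 FPKM with the mutant. The order of the constructs was thus turned around for Actg2. The mutant stood lowest, with a log2 change of -1.77 (adjusted p = 2.11e-10) against -1.17 (adjusted p = 1.64e-09) for full-length NFIA, and the difference of -0.60 between them passed the test (adjusted p = 7.26e-07).

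The cytoplasmic actins differed little between the groups. Actb (chr5:143664794-143668433, minus strand) was at 1946 to 1996 FPKM in control cells, at 1615 to 1769.7 FPKM with full-length NFIA and at 1688 to 1716 FPKM with the mutant, log2 changes of -0.23 and -0.22. Between the constructs, Actb differed by 0.01 (95% interval -0.08 to 0.11), which did not pass the test. Actg1 (chr11:120207004-120209856, minus strand) was at 947 to 972 FPKM in control cells, at 864 to 933 FPKM with full-length NFIA and at 968 to 1005 FPKM with the mutant. The change of -0.11 with full-length NFIA passed the test (adjusted p = 0.0224), and 0.03 with the mutant did not (95% interval -0.06 to 0.12). The first missed the threshold without control replicate 2 (adjusted p = 0.0742) or without replicate 1 or 2 with full-length NFIA (adjusted p = 0.0700 and 0.0898).

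Among the smooth muscle genes at day 0, Myl9 was lower with both constructs, and Cnn1 was higher with full-length NFIA and lower with the mutant. Myl9 (chr2:156601156-156607394, plus strand) was at 199, 191 and 196 FPKM in control cells, at 54.3, 55.4 and 52.4 FPKM with full-length NFIA and at 115, 126 and 115 FPKM with the mutant. The mutant lay between the other groups, with log2 changes of -1.84 (adjusted p = 1.95e-11) for full-length NFIA and -0.71 for the mutant. Cnn1 (chr9:21903725-21914074, plus strand) was at 3.54, 3.10 and 3.80 FPKM in control cells, at 5.01, 4.95 and 5.07 FPKM with full-length NFIA and at 1.36, 1.21 and 1.07 FPKM with the mutant. The 3 groups did not overlap, with log2 changes of 0.43 (adjusted p = 0.000176) and -1.02 (adjusted p = 2.74e-07). Tagln (chr9:45737711-45744141, minus strand) was at 107 to 113 FPKM in control cells, at 93.6 to 105 FPKM with full-length NFIA and at 62.7 to 67.9 FPKM with the mutant. Its log2 change was -0.12 (adjusted p = 0.0403) with full-length NFIA and -0.72 (adjusted p = 2.66e-07) with the mutant. The change with full-length NFIA missed the threshold when any control replicate (adjusted p = 0.0509 to 0.125) or replicate 3 with full-length NFIA (adjusted p = 0.127) was left out.

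Myh11 (chr16:14194620-14291501, minus strand) was too low at day 0 for the test across genes. Its FPKM were 0.0254, 0.0498 and 0.0404 in control cells, 0.471, 0.448 and 0.346 with full-length NFIA and 0.138, 0.129 and 0.116 with the mutant, from 20, 181 and 61 fragments in all. The groups did not overlap, and the mean was 10.9 times that of control cells with full-length NFIA (exact permutation test, 2-sided p = 0.1, the smallest that 3 against 3 samples allow).

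Of the 9 members tested at day 0, 8 were lower and 1 (Cnn1) was higher with full-length NFIA. Of all 12105 genes, 35.6% were lower and 37.7% higher. At the 3-fold threshold, Acta1, Actc1 and Myl9 were called lower with full-length NFIA, as were 2.78% of all genes, and Acta1, Actc1 and Actg2 with the mutant, as were 1.32%. Between the constructs, Acta1 and Actc1 were called higher with the mutant, as were 0.925% of all genes. At an adjusted p under 0.05 alone, 8 members were lower with the mutant than in control cells, against 29.7% of all genes. Between the constructs, 5 members were higher with the mutant and 3 lower, against 33.4% and 31.9% of all genes. The members were chosen with earlier results of these data in view, so these counts describe them and are no test of the set. With no filter on low values, these day 0 differences missed the threshold: Actb with either construct (adjusted p = 0.0910 and 0.124), Actg1 (0.101) and Tagln (0.128) with full-length NFIA, and Actg1 between the constructs (0.0533).

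**Figure D2:**
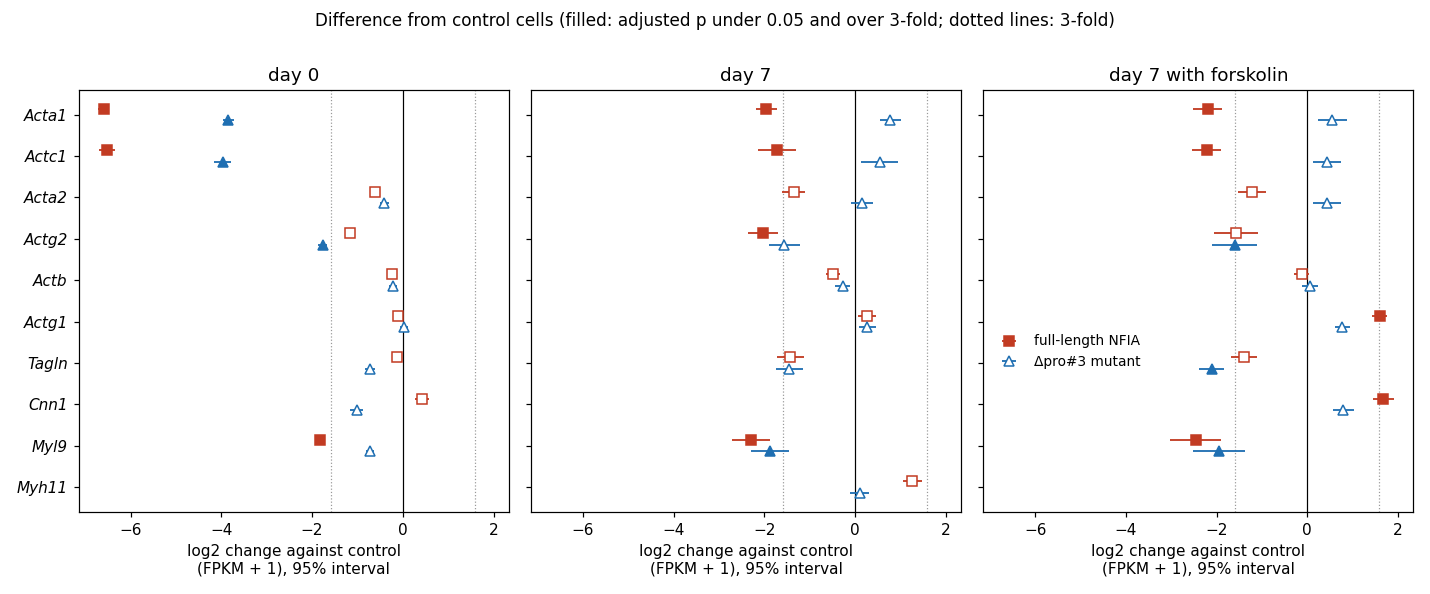
Log2 change of FPKM + 1 against control cells with its 95% interval, for full-length NFIA (squares) and the Δpro#3 mutant (triangles) at each time and treatment; filled symbols are called, dotted lines mark 3-fold, and genes too low to test have no symbol. At day 7, Acta1 lies at -1.96 with full-length NFIA and at 0.78 with the mutant.

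Genes that work with these proteins were read from lists written by hand. At day 0, 35.6% of all genes were lower and 37.7% higher with full-length NFIA at an adjusted p under 0.05. With the mutant, 29.7% were lower and 32.5% higher. Of 15 genes that encode partners of actin in the sarcomeric thin filament, 12 were tested at day 0, and all 12 were lower with full-length NFIA, with a median of -2.05 against 0.01 for all genes. Of these, 8 were called. The largest were Actn3 (-4.04), an actinin of the Z-disc, from 67.6 to 3.17 FPKM on average, and Klhl41 (-3.48), which stabilizes nebulin, from 13.02 to 0.255 FPKM. With the mutant, 10 were lower and 6 called, with a median of -1.55, among them Actn3 (-3.14) and Lmod3 (-2.52), a nucleator of thin filaments. Of 20 further genes of the smooth muscle contractile apparatus, 18 were tested. With full-length NFIA, 8 were higher and 8 lower, and 3 were called higher, as were 2.46% of all genes. Synm (2.48), an intermediate filament protein, went from 0.252 to 5.997 FPKM on average, and Hspb6 (2.29), a small heat shock protein of smooth muscle, from 9.73 to 51.3 FPKM. With the mutant, 7 were higher and 7 lower, and Ppp1r14a (2.17), an inhibitor of myosin phosphatase, was called higher, as were 0.859% of all genes. Of 15 cytoskeletal targets of MRTF and SRF, 13 were lower and 2 higher with full-length NFIA, and 12 were lower and 3 higher with the mutant, where 32.5% of all genes were higher. Filip1l (-2.001), a filamin interactor, and Ankrd1 (-1.85), a muscle ankyrin repeat protein, were called with full-length NFIA, and Ankrd1 (-1.72) with the mutant. Of 10 genes for SRF and its cofactors, 8 were tested. With full-length NFIA, 5 were lower, and with the mutant, 5 were lower and 2 higher. Of 20 regulators of cytoplasmic actin, 13 were lower and 4 higher with full-length NFIA. With the mutant, 7 were lower and 6 higher, near the shares of all genes. Between the constructs, Tmsb4x, which encodes thymosin β4 that sequesters free actin, was called (1.65 higher with the mutant), at 452 FPKM with full-length NFIA, 1418 FPKM with the mutant and 1317 FPKM in control cells on average.

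At day 7, the sarcomeric actins had risen in all 3 kinds of cells. Acta1 in control cells was at 2582, 2828 and 3066 FPKM, a log2 rise of 3.52 over day 0 (SE 0.0818, adjusted p = 8.54e-16). With full-length NFIA it was at 837, 653 and 692 FPKM, and with the mutant at 5099, 4682 and 4715 FPKM. Their rises of 8.16 and 8.14 from the lower level of day 0 were larger than that of control cells by 4.64 (adjusted p = 7.53e-15) and 4.62 (adjusted p = 2.11e-13). The rise with the mutant differed from that with full-length NFIA by -0.01 (95% interval -0.26 to 0.23), which did not pass the test on this scale. It depended on the pseudocount, since the day 0 level with full-length NFIA is near 1 FPKM. With a pseudocount of 0.1 the rise was smaller with the mutant by -0.57 (adjusted p = 0.00104), and by limma-voom by -0.68 (adjusted p = 0.0109). The order of the groups at day 7 was full-length NFIA, control and mutant, from low to high, with no overlap between neighbours. Against control cells, Acta1 was at -1.96 with full-length NFIA (adjusted p = 5.78e-08) and at 0.78 with the mutant (SE 0.103, adjusted p = 0.000207).

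Actc1 at day 7 was at 828, 933 and 986 FPKM in control cells, at 370.1, 207 and 280.0 FPKM with full-length NFIA and at 1111, 1509.9 and 1392 FPKM with the mutant. The order was the same as for Acta1, again without overlap. The log2 rises of Actc1 over day 0 were 2.44, 7.25 and 6.96, and the difference of -0.30 between the constructs (95% interval -0.77 to 0.17) did not pass the test on this scale. It did with a pseudocount of 0.1 (-1.16, adjusted p = 0.00113) and by limma-voom (-1.37, adjusted p = 0.0347). Against control cells, Actc1 was at -1.71 with full-length NFIA (adjusted p = 1.46e-05) and at 0.54 with the mutant (adjusted p = 0.0367). The change with the mutant missed the threshold when any of the 3 control replicates (log2 0.47 to 0.59) or replicate 2 or 3 of the mutant (0.45 and 0.50) was left out. It also missed the threshold in a fit with replicate number as a block. The ratio of Acta1 to Actc1 went from 1.46 ± 0.0290 (SD, n = 3) at day 0 to 3.09 ± 0.0472 at day 7 in control cells.

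From day 0 to day 7, Acta2 rose and Actg2 fell in control and mutant-expressing cells, and both fell with full-length NFIA. Acta2 was at 1149, 1157 and 1056 FPKM in control cells, at 533, 369.7 and 428 FPKM with full-length NFIA and at 1244, 1274 and 1214 FPKM with the mutant. Over the 7 days it rose by 0.23 in control cells (adjusted p = 0.0255) and by 0.80 in mutant-expressing cells (adjusted p = 4.15e-07), and it fell by 0.51 in full-length NFIA-expressing cells (adjusted p = 6.20e-05). The rise in control cells missed the threshold without replicate 1 or 3 at day 0 or replicate 1 or 2 at day 7 (0.21 to 0.23) and with no filter on low values (adjusted p = 0.0752). The changes with the constructs differed by 1.31 (adjusted p = 1.62e-07). Against control cells, full-length NFIA was lower by -1.35 (adjusted p = 1.89e-06), and the mutant differed by 0.15 (95% interval -0.10 to 0.40), which did not pass the test. Actg2 was at 43.3, 43.6 and 43.7 FPKM in control cells, at 11.8, 7.42 and 10.98 FPKM with full-length NFIA and at 16.9, 12.4 and 13.4 FPKM with the mutant. The log2 change against control was -2.03 with full-length NFIA (adjusted p = 7.25e-07) and -1.56 with the mutant (adjusted p = 2.76e-05). From day 0 to day 7, the mean ratio of Acta2 to Actg2 moved from 6.32 to 25.8 in control cells, from 9.42 to 44.7 with full-length NFIA and from 16.5 to 88.9 with the mutant.

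Both cytoplasmic actins fell as the cells differentiated. Actb was at 841, 847 and 752 FPKM in control cells, at 574, 537 and 620.0 FPKM with full-length NFIA and at 678, 667 and 666 FPKM with the mutant. Its fall over 7 days was -1.28, -1.55 and -1.34 on the log2 scale. Actg1 was at 299, 293 and 249 FPKM in control cells, at 316, 325 and 366 FPKM with full-length NFIA and at 364, 321 and 327 FPKM with the mutant, after falls of -1.78, -1.41 and -1.54. At day 7, Actb was lower with full-length NFIA (-0.49, adjusted p = 0.000101) and with the mutant (-0.28, adjusted p = 0.00855), whereas Actg1 was higher than in control cells with both (0.26, adjusted p = 0.0195, and 0.27, adjusted p = 0.0264). Both differences of Actg1 missed the threshold without control replicate 3 (0.18 and 0.19), the first also without replicate 3 of full-length NFIA (0.20) and the second without replicate 1 of the mutant (0.21). Between the constructs, Actg1 differed by 0.01 (95% interval -0.19 to 0.20), which did not pass the test. The placement limit described for Actg1 holds for these values.

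Tagln and Myl9 separated control cells from both constructs at day 7. Tagln was at 188, 188 and 205 FPKM in control cells, at 82.6, 60.7 and 72.4 FPKM with full-length NFIA and at 86.4, 62.8 and 63.5 FPKM with the mutant. It had risen over 7 days by 0.82 in control cells (adjusted p = 2.71e-06) and fallen by 0.49 with full-length NFIA (adjusted p = 0.000567), and with the mutant it differed from day 0 by 0.09 (95% interval -0.14 to 0.32), which did not pass the test. Against control cells, it was at -1.43 with full-length NFIA (adjusted p = 4.40e-06) and -1.45 with the mutant (adjusted p = 2.09e-05). The constructs overlapped, and the difference between them was -0.03 (95% interval -0.32 to 0.27), which did not pass the test.

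Myl9 was at 112, 107 and 108 FPKM in control cells, at 27.6, 14.7 and 24.1 FPKM with full-length NFIA and at 33.6, 28.8 and 25.2 FPKM with the mutant. Each construct lay far below control cells, with log2 changes of -2.29 (adjusted p = 1.51e-06) and -1.87 (adjusted p = 3.43e-05). The mutant, which had stood above full-length NFIA at day 0 (1.12, adjusted p = 2.05e-09), now overlapped with it, with a difference of 0.42 (95% interval 0.00 to 0.83, adjusted p = 0.0721). This difference passed the test only in a fit with replicate number as a block. Myl9 fell more over 7 days with the mutant (-1.997) than in control cells (-0.84), a difference of -1.16 (adjusted p = 0.000266).

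Cnn1 fell to a low level in all groups, with 0.760, 0.449 and 0.129 FPKM in control cells, 0.316, 0.269 and 0.573 FPKM with full-length NFIA and 0.267, 0.367 and 0.227 FPKM with the mutant, from 30 to 41 fragments a group. The groups overlapped, and Cnn1 was below the level tested at day 7 alone. Its fall over 7 days was -1.65 in control cells, -2.12 with full-length NFIA and -0.78 with the mutant, in a fit it entered through its day 0 levels. Myh11, in contrast, reached 1.99, 2.07 and 1.61 FPKM with full-length NFIA, against 0.178, 0.197 and 0.244 FPKM in control cells and 0.400, 0.234 and 0.247 FPKM with the mutant. It was higher with full-length NFIA than in control cells by 1.26 (adjusted p = 2.07e-05 with no filter) and than with the mutant by a log2 difference of -1.16 (mutant minus full-length NFIA, adjusted p = 4.26e-05 with no filter). Without full-length NFIA, its mean would have been below the filter. The mutant differed from control cells by 0.10 (95% interval -0.11 to 0.31), which did not pass the test. Fragments of Myh11 numbered 531 with full-length NFIA, 93 with the mutant and 59 in control cells.

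At day 7, 4 of the 9 members tested (Acta1, Actc1, Actg2 and Myl9) were called lower with full-length NFIA, as were 3.30% of all 12324 genes. With the mutant only Myl9 was called lower, against 0.503% of all genes, and without the mutant's replicate 1 the count was 3, as Actg2 (-1.68) and Tagln (-1.60) passed 3-fold. Between the constructs, Acta1 and Actc1 were called higher with the mutant, as were 2.60% of all genes. Over time, Acta1 and Actc1 were called higher and Actg2, Actg1 and Cnn1 lower in control cells, against 3.65% and 3.05% of all genes. In full-length NFIA-expressing cells, Acta1 and Actc1 were called higher and Actg2 and Cnn1 lower, against 5.38% and 4.71%. In mutant-expressing cells, Acta1 and Actc1 were called higher and Myl9 lower, against 3.91% and 2.93%, and without replicate 1 at day 7 the count went from 3 to 5 as Actg2 and Actg1 passed 3-fold. The change over time differed from that of control cells at an adjusted p under 0.05 for 8 members with full-length NFIA, against 71.2% of all genes, and for 6 with the mutant, against 44.7%. It differed between the constructs for 6 of the 9, a share close to the 63.5% of all genes. With no filter on low values, these day 7 differences missed the threshold: Actg1 with full-length NFIA (adjusted p = 0.0698) and with the mutant (0.0935), Actc1 with the mutant (0.157), and Actg2 (0.0879) and Actb (0.0588) between the constructs. That of Actg2 between the constructs also missed it without replicate 1 of the mutant (0.35 on the log2 scale).

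Marker genes of other cell types moved with these groups. At day 0, the summed FPKM of 5 skeletal muscle markers was 699.9 to 715 in control cells, 132 to 141 with full-length NFIA and 367 to 377 with the mutant, with Ckm below a mean of 0.5 FPKM with full-length NFIA, and that of 6 adipocyte markers 33.9 to 41.3, 391 to 425 and 302 to 320.5. At day 7, the skeletal muscle sum was 2275 to 2602 in control cells, 425 to 593 with full-length NFIA and 1879 to 2252 with the mutant, all 5 at a mean of 0.5 or more. The adipocyte sum at day 7 was 335 to 371, 13268 to 14750 and 602 to 1992 FPKM, again with all 6 at 0.5 or more. The sum of 5 smooth muscle markers outside the members was 42.8 to 44.8, 70.9 to 74.0 and 41.1 to 42.8 FPKM at day 0 and 66.1 to 69.4, 25.4 to 31.1 and 41.3 to 44.9 FPKM at day 7, with Myocd near 0. After forskolin, the skeletal muscle sum was 2161 to 2415, 349 to 441 and 1980 to 2139 FPKM, and the adipocyte sum 291 to 300.3, 12798 to 13506 and 535 to 886 FPKM. Cardiac markers (4 genes) summed at day 7 to 13.5 to 16.5, 1.70 to 2.38 and 7.03 to 10.3 FPKM. Endothelial markers (4 genes) summed to at most 1.43 FPKM in any sample. Of the 4 leukocyte markers, Cd68 had 1.99 to 26.4 FPKM, and Ptprc and Adgre1 had at most 0.0322. The part of these cell types in the results was not tested.

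At day 7, all 14 thin filament partners tested were lower with full-length NFIA and all 14 were called, with a median of -2.87 against -0.08 for all genes. Of all genes at day 7, 41.1% were lower and 31.3% higher with full-length NFIA than in control cells at an adjusted p under 0.05, and 27.5% lower and 21.3% higher with the mutant. At the 3-fold threshold, 4.87% were called higher with full-length NFIA and 0.933% with the mutant. Lmod2 (-3.60), a nucleator of thin filaments, was at 204 FPKM on average in control cells and at 15.9 FPKM with full-length NFIA, and Klhl40 (-3.53), a partner of nebulin, at 51.2 and 3.51 FPKM. With the mutant, 8 were lower and 1 higher, with a median of -0.33, and Tmod4 (-1.91), which caps filament ends, was called. Of the 15 MRTF and SRF targets, 12 were lower and 1 higher with full-length NFIA, with Ankrd1 (-3.70) and Tpm1 (-2.69), a tropomyosin, as the largest falls and Myh10 (1.99), a non-muscle myosin, called higher. With the mutant, 4 were higher and 4 lower. Of the 9 genes tested for SRF and its cofactors, 4 were lower and 1 higher with full-length NFIA, and Abra (-3.80), a striated muscle activator of MRTF, and Fhl2 (-1.67) were called. With the mutant, 1 was lower and 2 higher. Of the further smooth muscle genes, 13 were lower and 4 higher with full-length NFIA, with Synm (2.18) called. With the mutant, 9 were lower and 6 higher, with Itga8 (-1.75), an integrin, and Ppp1r14a (1.77) called. Among regulators of cytoplasmic actin, 8 were lower and 7 higher with full-length NFIA, and Gsn, which encodes the filament-severing gelsolin, was called (2.29), at 1528 FPKM against 312 FPKM in control cells on average. With the mutant, 7 of the 20 were higher.

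Over the 7 days, all 14 thin filament partners tested rose in control cells, with a median of 3.23 and 13 called. Of all genes, 36.0% rose and 42.7% fell in control cells at an adjusted p under 0.05, 33.2% and 46.5% with full-length NFIA and 32.8% and 46.7% with the mutant. The partners in control cells were led by Lmod2 (5.45) and Actn2 (5.24), the actinin of the Z-disc. With full-length NFIA, 12 rose and 11 were called, led by Klhl41 (4.59) and Actn2 (4.18), and with the mutant 14 rose and 12 were called, led by Lmod2 (6.85) and Klhl41 (6.41). Of the 15 MRTF and SRF targets, 12 fell in each kind of cell. The largest falls were those of Myh10 (-2.10) and Zyx (-2.07), the focal adhesion protein zyxin, in control cells, of Cyr61 (-3.93) and Ctgf (-3.27) with full-length NFIA and of Myh10 (-1.99) and Cyr61 (-1.71) with the mutant. Tpm1 (1.996) and Ankrd1 (1.95) rose with the mutant, and Ankrd1 (1.71) in control cells. Of the 20 regulators of cytoplasmic actin, 16 fell in control cells, 17 with full-length NFIA and 12 with the mutant. Between the constructs at day 7, 14 of 14 thin filament partners were higher with the mutant and 13 were called, with a median of 2.43 against 0.03 for all genes, of which 34.3% were higher.

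The make-up of actin mRNA was summarized as the share of each gene in the summed FPKM of the 6 actins. In control cells, Acta1 and Actc1 together made up 9.25% ± 0.390 (SD, n = 3) at day 0 and 62.3% ± 3.28 at day 7. With full-length NFIA they made up 0.0725% ± 0.00860 and 42.4% ± 2.85, and with the mutant 0.744% ± 0.0293 and 73.1% ± 0.199. The share of Acta2 and Actg2 ranged over the day 0 and day 7 groups from 24.7% ± 0.271 in control cells at day 0 down to 14.9% ± 0.243 with the mutant at day 7. Actb and Actg1 made up 66.0% ± 0.190, 78.7% ± 0.528 and 77.3% ± 0.451 at day 0 in control, full-length NFIA- and mutant-expressing cells, and 18.3% ± 1.82, 38.6% ± 4.28 and 11.9% ± 0.286 at day 7. The sum of the 6 actins at day 7 was 5999 ± 224 FPKM in control cells, 2379.7 ± 272 FPKM with full-length NFIA and 8435 ± 96.4 FPKM with the mutant. Since Actg1 is counted in part, shares that include it are approximate.

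**Figure D3:**
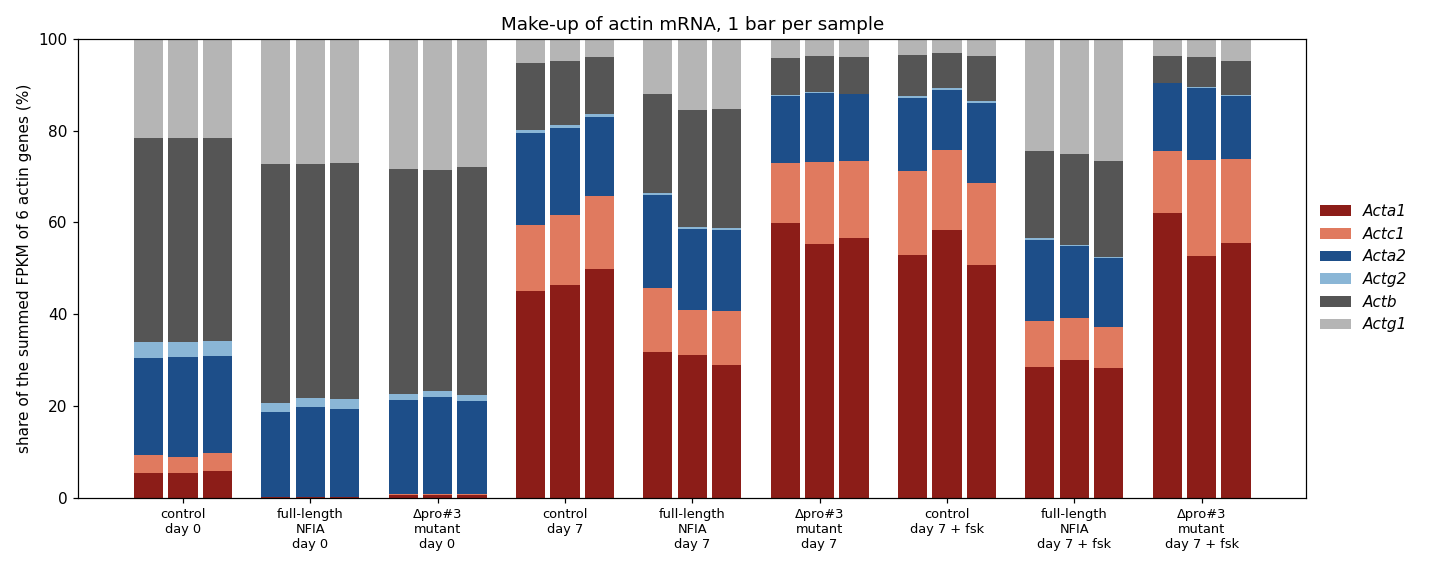
Share of each of the 6 actin genes in their summed FPKM (%), 1 stacked bar per sample, in the 9 groups (fsk is forskolin). The red segments, Acta1 and Actc1, are under 1% in all day 0 samples with either construct and make up 40.6 to 45.7% with full-length NFIA at day 7.

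After 4 h of forskolin, most members were lower in control cells, but the changes of the sarcomeric actins there did not pass the test. Acta1 was at 2613, 3230.3 and 2428 FPKM in treated control cells, overlapping the untreated samples, with a log2 change of -0.04 (95% interval -0.32 to 0.23) that did not pass the test. Actc1 changed by -0.01 (95% interval -0.39 to 0.37), likewise not passing. With full-length NFIA, Acta1 was at 669, 610.2 and 519.9 FPKM (-0.28, 95% interval -0.55 to -0.00), and with the mutant at 4728, 3674 and 3702 FPKM (-0.27, 95% interval -0.55 to 0.01), and neither passed. Without the treated replicate 1 that stood apart, each passed (-0.36, adjusted p = 0.0413, and -0.39, adjusted p = 0.0354). Actc1 was lower in full-length NFIA-expressing cells after forskolin, at 232, 189.9 and 165 FPKM (-0.52, adjusted p = 0.0229). This change missed the threshold without untreated replicate 1 or 3 (-0.31 and -0.51) or treated replicate 2 or 3 (-0.50 and -0.40), and with samples scaled by median ratios (-0.38, adjusted p = 0.0917). Mutant samples were at 1027, 1450.0 and 1226 FPKM of Actc1, a change that did not pass. The order of the 3 kinds of cells stayed as it was without forskolin. Against control cells, Acta1 was at -2.20 with full-length NFIA (adjusted p = 1.49e-07) and at 0.55 with the mutant (adjusted p = 0.00935), and Actc1 at -2.22 (adjusted p = 1.14e-07) and 0.43 (adjusted p = 0.0278). The difference of Actc1 with the mutant missed the threshold without control replicate 1 or 3 (0.42 and 0.39) or replicate 2 or 3 of the mutant (0.31 and 0.43).

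Actg1 changed in opposite directions with forskolin in control cells and with full-length NFIA. It fell in control cells to 175, 171 and 174 FPKM and rose in full-length NFIA-expressing cells to 573, 514 and 489 FPKM. In mutant-expressing cells it was at 291, 278 and 319.7 FPKM. The log2 responses were -0.69 in control cells (SE 0.0824, adjusted p = 1.36e-05), 0.64 with full-length NFIA (SE 0.0824, adjusted p = 6.65e-06) and -0.19 with the mutant (95% interval -0.36 to -0.01, adjusted p = 0.0876). The response with full-length NFIA exceeded that of control cells by 1.33 (adjusted p = 5.86e-07) and that with the mutant by a difference of -0.83 (mutant minus full-length NFIA, adjusted p = 0.000104). As a result, Actg1 after forskolin was called higher with full-length NFIA than in control cells (1.59, adjusted p = 9.66e-09). Without treated replicate 1 of full-length NFIA, the highest of its group, this difference fell short of 3-fold. Fragments that could not be placed are missing from these values as well, and how that bears on the response was not tested.

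Actb, the other cytoplasmic actin, fell in every kind of cell. It was at 440.1, 428 and 476 FPKM in treated control cells (-0.86, adjusted p = 3.16e-07), at 444, 403 and 388 FPKM with full-length NFIA (-0.49, adjusted p = 3.34e-05) and at 439, 459 and 499 FPKM with the mutant (-0.53, adjusted p = 3.51e-05). The groups overlapped after forskolin. Against control cells, Actb was at -0.12 with full-length NFIA (95% interval -0.29 to 0.05) and 0.06 with the mutant (95% interval -0.11 to 0.23), and neither passed the test. Without treated replicate 1 of full-length NFIA, the first did (-0.18, adjusted p = 0.0446). The mean ratio of Actb to Actg1 in full-length NFIA-expressing cells went from 1.72 ± 0.0836 to 0.784 ± 0.00926 (SD, n = 3), and in control cells from 2.91 ± 0.101 to 2.59 ± 0.131.

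Cnn1 was the other member that rose. With full-length NFIA it went to 3.43, 2.76 and 2.98 FPKM (286 fragments) and with the mutant to 1.46, 0.927 and 1.21 FPKM, while control cells were at 0.206, 0.271 and 0.317 FPKM. The groups did not overlap. Cnn1 entered this fit only through the treated samples of the constructs, and its adjusted p are those with no filter. The log2 response was 1.55 with full-length NFIA (adjusted p = 2.91e-06), 0.77 with the mutant (adjusted p = 0.00205) and -0.17 in control cells (95% interval -0.46 to 0.12), which did not pass the test. The response with full-length NFIA exceeded that of control cells by 1.72 (adjusted p = 8.62e-05) and that of the mutant by a difference of -0.79 (mutant minus full-length NFIA, adjusted p = 0.0242), and the mutant exceeded control cells by 0.94 (adjusted p = 0.0314). The difference between the constructs missed the threshold with a pseudocount of 0.1 (-1.003, adjusted p = 0.189) and by limma-voom (-1.08, adjusted p = 0.162). After forskolin, Cnn1 was higher with full-length NFIA than in control cells by 1.68 (adjusted p = 2.32e-05), again in a fit it entered through the constructs.

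Myl9 and Tagln fell with forskolin in all 3 kinds of cells, and Actg2 fell in control cells (-0.94) and with the mutant (-0.99). With full-length NFIA, the response of Actg2 was -0.48 (95% interval -0.93 to -0.04), which did not pass the test (adjusted p = 0.0623). Its difference from the response of control cells, 0.46 (95% interval -0.17 to 1.09), did not pass either. Nor did that between the constructs (-0.505, mutant minus full-length NFIA, 95% interval -1.14 to 0.13). Myl9 was at 55.0, 45.5 and 53.5 FPKM in control cells, at 13.6, 7.07 and 6.25 FPKM with full-length NFIA and at 8.99, 16.9 and 12.9 FPKM with the mutant, after responses of -1.07, -1.24 and -1.15. The constructs overlapped, with a difference of 0.51 (95% interval -0.05 to 1.08) that did not pass the test. It passed without replicate 1 of full-length NFIA (0.82, adjusted p = 0.00513) or of the mutant (0.73, adjusted p = 0.0248). Tagln was at 124, 119 and 124 FPKM in control cells, at 55.8, 46.1 and 37.4 FPKM with full-length NFIA and at 29.2, 29.8 and 23.9 FPKM with the mutant. Its fall was -0.66 in control cells, -0.63 with full-length NFIA and -1.32 with the mutant. The response with the mutant differed from that of control cells by -0.66, which did not pass the test (adjusted p = 0.0710). It differed from that with full-length NFIA by -0.69 (adjusted p = 0.0211). This difference between the constructs missed the threshold without untreated replicate 2 (-0.58) or treated replicate 1 (-0.55) of full-length NFIA or treated replicate 3 of the mutant (-0.59). Actg2 was at 22.9, 20.5 and 23.03 FPKM in control cells, at 11.2, 5.43 and 4.999 FPKM with full-length NFIA and at 6.58, 7.81 and 5.66 FPKM with the mutant. Between the constructs, Actg2 differed by -0.03 (95% interval -0.52 to 0.46), which did not pass the test. The value rests on replicate 1 of full-length NFIA, and without it the difference was 0.30 (adjusted p = 0.0366).

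Acta2 after forskolin was at 790.4, 718 and 830.4 FPKM in control cells (-0.52, adjusted p = 0.0116), at 418, 318 and 277 FPKM with full-length NFIA (-0.40, adjusted p = 0.0214) and at 1136, 1097 and 917 FPKM with the mutant. The response in control cells missed the threshold without treated replicate 2 (-0.47), and that with full-length NFIA without untreated replicate 1 (-0.26) or treated replicate 2 or 3 (-0.37 and -0.26), or with samples scaled by median ratios (-0.26, adjusted p = 0.124). Between the constructs, Acta2 was higher with the mutant, by 1.65 (adjusted p = 1.83e-06), with no overlap. Myh11 fell in full-length NFIA-expressing cells from 1.61 to 2.07 FPKM without forskolin to 0.627, 0.586 and 0.852 FPKM with it, 0.364 times the untreated mean (-0.77, adjusted p = 2.95e-06 with no filter). Mutant samples were at 0.0772 to 0.163 FPKM, 0.446 times their untreated mean and without overlap (exact permutation test, 2-sided p = 0.1, the smallest possible here), and control samples at 0.151 to 0.203 FPKM, 0.877 times theirs and overlapping. The fall with full-length NFIA differed from the change in control cells by -0.74 (adjusted p = 0.000256 with no filter) on the FPKM + 1 scale. Its difference from the mutant depended on that scale (0.58, adjusted p = 0.00238 with no filter, and 0.245 with a pseudocount of 0.1). Myh11 entered this fit through the untreated samples of full-length NFIA.

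**Figure D4:**
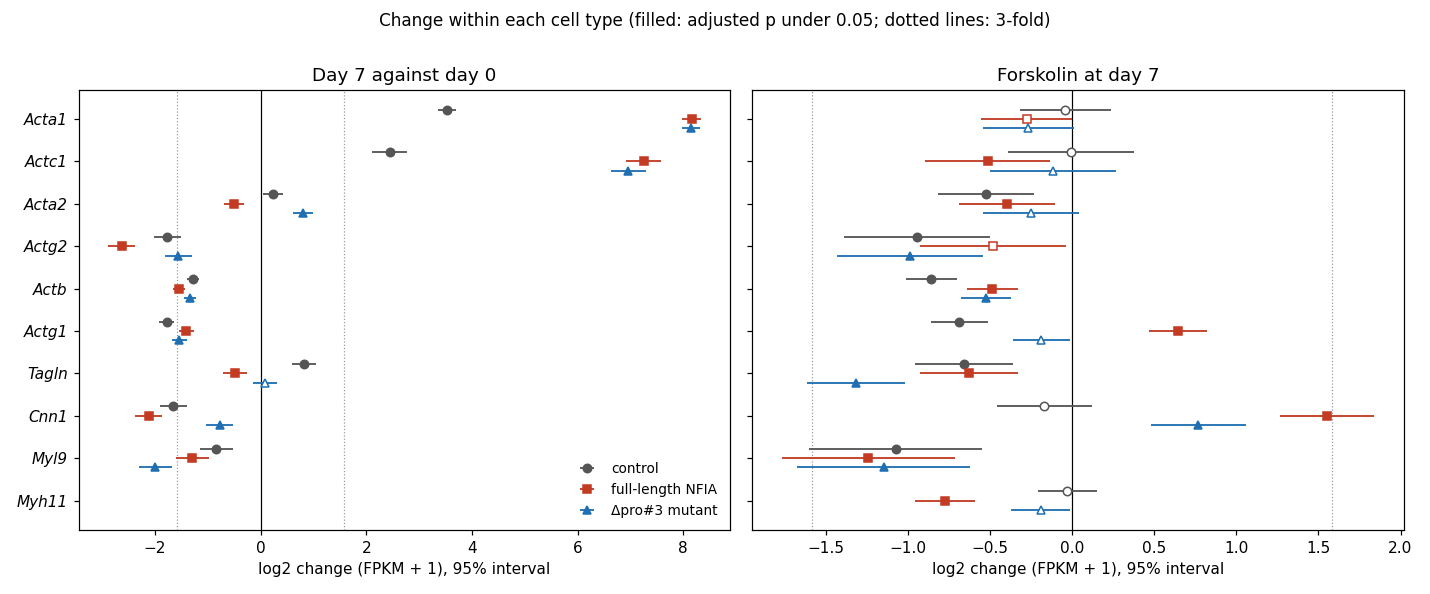
Log2 change of FPKM + 1 with its 95% interval within control cells (circles), full-length NFIA (squares) and the Δpro#3 mutant (triangles), from day 0 to day 7 (left) and from no forskolin to forskolin at day 7 (right); filled symbols passed the test. On the right, Actg1 lies at -0.69 in control cells and at 0.64 with full-length NFIA.

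With forskolin, 3 of 9 members tested (Acta1, Actc1 and Myl9) were called lower with full-length NFIA than in control cells and 2 (Actg1 and Cnn1) higher, against 3.77% and 4.25% of all 12121 genes. Actg2 was at -1.57 (adjusted p = 7.74e-05), just short of 3-fold. Without treated replicate 1 of full-length NFIA, Actg2 lay past 3-fold and Actg1 short of it. With the mutant, 3 (Actg2, Tagln and Myl9) were called lower, against 0.685% of all genes. Between the constructs, Acta1, Actc1 and Acta2 were called higher with the mutant, against 2.89%. By limma on log2(FPKM + 1), the response to forskolin was past 3-fold for no member, against 0.392% of all genes in control cells, 0.743% with full-length NFIA and 0.588% with the mutant. Cnn1, which is low, was past 3-fold with a pseudocount of 0.1 (2.75 with full-length NFIA and 1.74 with the mutant) and by limma-voom (3.05 and 1.97), and its mean FPKM was 7.92 and 4.18 times that of untreated cells. At an adjusted p under 0.05 alone, 6 of 10 members fell in control cells, where 13.5% of all genes fell. With full-length NFIA, 6 fell and 2 rose, against 41.5% and 13.9% of all genes, and with the mutant, 4 fell and 1 rose, against 23.9% and 11.9%. The response differed from that of control cells for 4 members with full-length NFIA, against 30.6% of all genes, and for 2 with the mutant, against 4.97%. It differed between the constructs for 4, against 21.7%. The counts that include Cnn1 or Myh11 rest in part on the filter described above. With no filter on low values, the differences of Acta1, Actc1 and Acta2 between the mutant and control cells after forskolin missed the threshold (adjusted p = 0.104, 0.131 and 0.134, and for Acta2 0.0842 without treated replicate 1 of the mutant), as did the responses of Actc1 and Acta2 with full-length NFIA (0.0787 and 0.0704), the difference in response of Tagln between the constructs (0.0726) and that of Actg1 between the mutant and control cells (0.0539). Scaling the samples to each other would move the median of all genes by 0.16 between full-length NFIA and control cells after forskolin, by 0.13 over time with full-length NFIA, by 0.11 over time with the mutant, by 0.11 for the response with full-length NFIA and by -0.12 between the constructs after forskolin, and no member that passed the test changed its direction under it.

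Among MRTF and SRF targets, 12 of 15 fell with forskolin in control cells, 10 with full-length NFIA and 8 with the mutant. Of all genes, 13.5% fell in control cells, 41.5% with full-length NFIA and 23.9% with the mutant. Ctgf, a secreted target of this pathway, was called in each, with -3.11, -2.11 and -3.07, and Cyr61, its relative, was called in control cells (-2.28). The response with full-length NFIA was higher than that of control cells for 7 of the 15 and lower for 1, against 9.16% and 21.5% of all genes. The largest differences were those of Cyr61 (3.33, adjusted p = 3.30e-10) and Flna (1.51, adjusted p = 7.30e-08), the filamin that crosslinks actin. Cyr61 went from 186 to 37.4 FPKM on average in control cells and from 29.7 to 62.2 FPKM with full-length NFIA. Of 20 regulators of cytoplasmic actin, the response with full-length NFIA was higher for 7, led by Wdr1 (0.71, adjusted p = 9.06e-06), a cofactor of actin disassembly, and Arpc3 (0.67, adjusted p = 2.93e-06), a subunit of the Arp2/3 complex. Among SRF and its cofactors, 2 were higher, Fhl2 (1.34) and Srf (0.49), and 2 lower, Abra (-0.70) and Mkl2 (-0.38). Of the further smooth muscle genes, 2 were higher, Csrp2 (1.11) and Actn1 (0.80), and 2 lower, Synm (-0.82) and Hspb6 (-0.60). Of the thin filament partners, 2 of 14 were lower, Lmod3 (-0.59) and Xirp1 (-0.58). The median difference over all genes was -0.10.

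Across the 27 samples, the genes outside the set whose log2(FPKM + 1) followed Acta1 most closely, among 8788 genes whose mean was at least 5 FPKM, were Mylpf (Pearson r 0.995), a fast skeletal myosin light chain, Myom2 (0.992), a protein of the M-band, and Tnni1 (0.991), the slow skeletal troponin I. Mylpf was at 340 ± 27.5 FPKM in control cells at day 0 and at 1.80 ± 0.162 FPKM with full-length NFIA (SD, n = 3). The genes most like Acta2 were Myl12a (0.958), a regulatory light chain of non-muscle myosin, Pdcl3 (0.952) and Prmt1 (0.948). Those most like Myh11 were Alad (0.954), Stat5a (0.953) and Nat6 (0.949). The samples of a group share their construct, time and treatment, so these values describe the pattern over 9 groups more than 27 independent points.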

How the data were processed

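Per the labels and the study's methods, the authors mapped stranded polyadenylated RNA-seq reads to mm9 with STAR 2.5.3a, kept uniquely mapped reads, and deposited FPKM from fragments on the matching strand, without scaling between samples; the gene annotation used is not given in the sources used here. All FPKM gave whole fragments (within 0.1), and the sum of these is the depth of each library (median 17707223). Counting error is largest for Myh11 and Cnn1.

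From the deposited FPKM, log2(FPKM + 1) was fitted with limma 3.58.1 (R 4.3.3, trended empirical Bayes) for genes whose mean over the samples fitted was at least 0.5 FPKM (in the report, adjusted p of Cnn1 and Myh11 at day 7 are from the fit with no filter), by time point for contrasts of cell types, and over day 0 and day 7, or day 7 with and without forskolin, for changes and their differences (21 comparisons). This scale understates changes of genes near or below 1 FPKM. P-values were adjusted by Benjamini-Hochberg over all genes tested. A change was called at an adjusted p under 0.05 and more than 3-fold, a difference between changes at the adjusted p alone. Members too low to be tested were compared with an exact permutation test. Comparisons with control cells share the control samples. The fit for day 0 was tried on data simulated from the day 0 samples, without outlying replicates. The day 7 and forskolin settings were not simulated. Replicates were distinct libraries, with chi-square per gene of 1.55 to 15.0 over 27 pairs.

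The members and gene lists were chosen with earlier results of these data known. Named genes are the members, Nfia, up to 2 called genes per list and direction in the comparisons described (for differences between changes, those that passed), and the 3 genes most like Acta1, Acta2 and Myh11. Transcript stretches of 50 and 100 bases were searched in mm9. Figures were drawn with matplotlib 3.10.9. Alternatives were the pseudocount, scaling, the filter, the groups fitted, the trend, a replicate block, limma-voom on fragments, and leaving out each sample.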

Additional observations from a re-analysis of the deposited data

Results flagged for a closer look

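The results below are changes that differed between kinds of cells, each by a test of the difference itself (limma, adjusted p under 0.05), over 9 members for time and 10 for forskolin. All are log2 differences between 2 changes, and those with control cells share the control samples. Cnn1 and Myh11 passed the filter on low values only through groups where they were high (Cnn1 at day 0 and in the treated samples of the constructs, Myh11 in untreated samples of full-length NFIA), so their differences are descriptions.

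The change from day 0 to day 7 with full-length NFIA was larger than in control cells by 4.64 for Acta1 and 4.81 for Actc1, the sarcomeric actins, and by 0.37 for Actg1. It was lower than in control cells by -0.75 for Acta2, -0.86 for Actg2, -0.26 for Actb, -1.31 for Tagln and -0.47 for Cnn1. The difference of Cnn1 missed the threshold with no filter (adjusted p = 0.0614), without control replicate 2 at day 0 or replicate 1 at day 7 (-0.41 and -0.32), or without replicate 1 or 2 of full-length NFIA at day 7 (-0.44 and -0.41). With the mutant, the change exceeded that of control cells by 4.62 for Acta1, 4.51 for Actc1, 0.56 for Acta2 and 0.87 for Cnn1, and was lower by -0.73 for Tagln and -1.16 for Myl9. Both differences of Cnn1 from control cells missed the threshold with a pseudocount of 0.1 (adjusted p = 0.326 and 0.0662).

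Between the constructs, the change over time was higher with the mutant by 1.31 for Acta2, 1.07 for Actg2, 0.21 for Actb, 0.58 for Tagln and 1.34 for Cnn1, and lower by -0.70 for Myl9. The difference of Actb missed the threshold with no filter on low values (adjusted p = 0.106) and without 6 single libraries: replicate 3 of full-length NFIA (0.17) and replicates 1 and 2 of the mutant (0.20 each) at day 0, and replicates 1 and 2 of full-length NFIA (0.20 and 0.16) and replicate 1 of the mutant (0.20) at day 7.

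The response to forskolin with full-length NFIA was higher than in control cells by 0.37 for Actb, 1.33 for Actg1 and 1.72 for Cnn1, and lower by -0.74 for Myh11. With the mutant it was higher than in control cells by 0.50 for Actg1 and 0.94 for Cnn1. That of Actg1 missed the threshold without untreated control replicate 1 or 2 (0.45 and 0.47) or treated replicate 3 of the mutant (0.45), and with no filter on low values (adjusted p = 0.0539). Between the constructs, the response was lower with the mutant by -0.83 for Actg1, -0.69 for Tagln and -0.79 for Cnn1, and higher by 0.58 for Myh11. That of Tagln missed the threshold with no filter on low values (adjusted p = 0.0726). The differences of Cnn1 and Myh11 between the constructs missed the threshold with a pseudocount of 0.1 (adjusted p = 0.189 and 0.245). Myh11 was at 0.0772 to 0.400 FPKM in all day 7 samples of the mutant.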

How the results depend on the processing

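No member that passed the test changed its direction under any alternative run. Counts of members called that moved by over 1.5 times were these. A pseudocount of 0.1 and limma-voom on fragments each gave 2 instead of 1 for the mutant against control cells at day 7, 5 instead of 3 for the mutant over time, 1 instead of 0 for the forskolin response with full-length NFIA and with the mutant, and 2 instead of 4 differences in that response between the constructs. Scaling by median ratios gave 1 instead of 0 with full-length NFIA. Without a filter, 1 response instead of 2 differed between the mutant and control cells. With a minimum mean FPKM of 5, which leaves out Cnn1 and Myh11, differences in response numbered 2 instead of 4 (full-length NFIA against control), 1 instead of 2 (mutant against control) and 2 instead of 4 (between the constructs). Leaving out single replicates gave 1 to 3 for the mutant against control cells at day 7 and 3 to 5 for the mutant over time (both without replicate 1 of the mutant at day 7), and 0 to 1 for the response with full-length NFIA (1 without its untreated replicate 3 or treated replicate 2). It gave 1 to 3 differences in response between the mutant and control cells (1 without untreated control replicate 1 or 2 or treated mutant replicate 3) and 2 to 4 between the constructs (2 without untreated replicate 2 of full-length NFIA). Where no construction of the alternative shows it, the cause was not tested. On log2(FPKM + 1), changes of genes near or below 1 FPKM are understated. With a pseudocount of 0.1 and by limma-voom, the changes over time between the constructs passed the test for Acta1 (-0.57 and -0.68) and Actc1 (-1.16 and -1.37), and the call was lost for Cnn1 over time against control cells (full-length NFIA -0.54 and -0.65, mutant 1.14 and 1.12) and for the forskolin response between the constructs of Cnn1 (-1.003 and -1.08) and Myh11 (0.58 and 0.30).

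Of differences that had not passed, scaling turned Actg1 between the constructs at day 7 to -0.036, Actb with full-length NFIA after forskolin to 0.069, and the response of Acta1 and Actc1 in control cells to 0.013 and 0.047. Leaving out single replicates gave -0.088 to 0.090 for Acta1 over time between the constructs, -0.019 to 0.047 for Actb between the constructs at day 0, -0.16 to 0.044 and -0.078 to 0.047 for the responses of Acta1 and Actc1 in control cells, -0.048 to 0.071 for Actg1 and -0.17 to 0.079 for Tagln between the constructs at day 7, -0.063 to 0.16 for Tagln over time with the mutant, and -0.22 to 0.30 for Actg2 between the constructs after forskolin.

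The share of Acta1 and Actc1 among the actins, from fragments not divided by length, was 7.02%, 0.0544% and 0.554% at day 0 (control, full-length NFIA, mutant), 53.3%, 34.7% and 64.9% at day 7 and 63.5%, 31.3% and 66.0% after forskolin.

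Replicate numbers gave no pairing. Deviations of same-numbered samples correlated between -0.173 and 0.131, and those of other numbers between -0.149 and 0.201. A replicate block left the counts of members past 3-fold as they were and moved 1 count of differences between changes (3 instead of 2, forskolin response of the mutant against control cells). It also changed whether 2 differences of single members, neither past 3-fold, passed the test by limma. Actc1 with the mutant at day 7 no longer passed (adjusted p = 0.0628), and Myl9 between the constructs at day 7 did (adjusted p = 0.0480). Depth limits Myh11, with 20 fragments over the control samples at day 0, and Cnn1, with 27 to 41 a group at day 7 outside the treated constructs.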
